A study of Mus musculus with 24 samples.

Results

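The 9 members described here are mature miRNAs of the miR-17/92 cluster and its paralogous clusters: miR-17-5p, miR-18a-5p, miR-19a-3p, miR-19b-3p, miR-20a-5p, miR-92a-3p, miR-93-5p, miR-106b-5p and miR-25-3p. They were chosen by name and not by a measured value, and they are 9 of the 1881 mouse miRNAs with probes on the array. The data were 24 one-color miRNA microarrays, 1 for each of 8 tissues in each of 3 lens groups. The tissues were cornea, iris, lens, retina, choroid (RPE/choroid in the study's methods), sclera and 2 samples labelled SCN and LGN.

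The animals were male C57BL/6J mice with no transgene or deletion stated. In the −30 D group, a negative 30 diopter lens, the study's way of inducing myopia, sat on the right eye from 3 weeks of age for 3 weeks. The normal group wore no lens, and a further group is labelled with a 0 D lens, which the study's methods do not describe. For the ocular tissues of the normal and −30 D groups, equal amounts of RNA from 3 mice were combined before labelling, so that 1 array stands for a pool and holds no spread between animals. A lens group filled a slide with its 8 arrays, and the effects of slide and of lens group cannot be told apart.

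A miRNA silences mRNAs whose 3′ ends pair with its seed, the bases 2 to 8 from its 5′ end, so that miRNAs with 1 seed share many predicted targets. The miR-17/92 transcript is a polycistron that MYC and E2F factors switch on in dividing cells, and it is best known as an oncogenic miRNA cluster. miRNAs with the miR-17 seed repress cell cycle and cell death genes such as Cdkn1a and Bcl2l11. The miR-106b, miR-93 and miR-25 hairpins lie inside Mcm7, a gene for a DNA replication helicase subunit. In the eye, the cornea carries a self-renewing surface epithelium, while retinal neurons and lens fiber cells no longer divide. The lens also keeps a sheet of epithelial cells, some of which divide.

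All 9 members had a mature sequence in the RefSeq table (GRCm38.p6), and they are shown to make clear which members share a seed, printed in capitals. Those with the miR-17 seed were:
mmu-miR-17-5p: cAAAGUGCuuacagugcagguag
mmu-miR-20a-5p: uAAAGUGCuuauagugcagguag
mmu-miR-93-5p: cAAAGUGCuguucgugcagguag
mmu-miR-106b-5p: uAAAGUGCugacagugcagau
mmu-miR-20b-5p: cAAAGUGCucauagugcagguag

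The last of these, miR-20b-5p, is no member but a further product of the same family, shown because it is described beside miR-20a-5p. The single member with the miR-18 seed was:
mmu-miR-18a-5p: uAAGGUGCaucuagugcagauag

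The members with the miR-19 seed were:
mmu-miR-19a-3p: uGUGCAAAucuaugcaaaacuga
mmu-miR-19b-3p: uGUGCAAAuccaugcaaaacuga

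The members with the miR-92/25 seed were:
mmu-miR-92a-3p: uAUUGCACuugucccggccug
mmu-miR-25-3p: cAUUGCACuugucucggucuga

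Counted from the 5′ end, miR-20a-5p differed from miR-17-5p at 2 of 23 bases (C1U and C12U, with the base of miR-17-5p first). miR-19b-3p differed from miR-19a-3p at 1 base (U11C), and miR-25-3p from miR-92a-3p at 3 of 21 shared positions (U1C, C14U and C18U). On GRCm38.p6, the 6 hairpins of the miR-17/92 cluster lie within 836 bases at chr14:115043671-115044506 on the plus strand, the last of them, Mir92-1, inside the annotated noncoding gene Mir17hg. The hairpins of miR-106b-5p, miR-93-5p and miR-25-3p lie within 498 bases at chr5:138165321-138165818 on the minus strand, inside Mcm7. A further copy of miR-19b-3p and of miR-92a-3p is encoded at chrX:52741838-52742066 on the minus strand, so that for these members the array cannot tell the loci apart.

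Each value below is a scaled signal in arbitrary units: the sum of the background-subtracted signals of a miRNA's probes above 3 times their error, brought to a common 75th percentile across arrays, taken over the 79 miRNAs that every one of the 24 arrays detected. Probes differ in brightness, so that a signal is compared between tissues for 1 miRNA and never between miRNAs as an abundance. A tissue's mean and SD are over 3 arrays, 1 from each lens group. Tissues were compared with limma, with terms for tissue and lens group, over the 352 miRNAs detected on at least 3 arrays, and a miRNA was called at a Benjamini-Hochberg adjusted p under 0.05. Detected signals below a common floor of 9.93 were set to it in these fits. In bulk tissue, fewer cells of a type and less RNA per cell cannot be told apart.

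The arrays detected 129 to 249 of the 1881 miRNAs, the fewest on the lens (129 to 149) and cornea (137 to 172) arrays. These were also the dimmest: the log2 scaling factors were 1.27 to 1.65 for the lens and 0.69 to 0.98 for the cornea, against −1.01 to 0.36 for the other tissues. The tissue labels were checked against marker miRNAs. All 4 surface epithelium markers were detected on the 3 cornea arrays, with a summed scaled signal of 1675 to 1982, and miR-205-5p, the defining one, was otherwise found in the iris alone (4.53 to 8.06). Of that list, miR-31-5p was also on all lens arrays, at 321 to 370, above the cornea (211 to 273), and on all iris, choroid and LGN arrays (11.0 to 24.6), while the other 3 were undetected in the lens. The neuron marker miR-124-3p was at 10202 to 11409 in the retina, 1396 to 1500 in SCN and 1627 to 2111 in LGN, and it was also present in choroid (570 to 985), sclera (321 to 587) and lens (105 to 390). The photoreceptor marker miR-183-5p, highest in the retina, was also at 520 to 900.0 in choroid, 253 to 658 in sclera and 76.9 to 268 in the lens. The 2 pigment cell markers did not set the pigmented tissues apart. Their summed signal was highest in the lens (1227 to 1377), above iris (1067 to 1211) and choroid (830 to 1009), and the retina (670 to 858) overlapped the choroid.

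Of the 9 members, 5 were detected on all 24 arrays: miR-19b-3p, miR-20a-5p, miR-92a-3p, miR-106b-5p and miR-25-3p. miR-93-5p was detected on 20 arrays, miR-19a-3p on 8, miR-18a-5p on 5 and miR-17-5p on none. From the cluster on chromosome 14, miR-20a-5p, miR-19b-3p and miR-92a-3p had their highest mean scaled signal in the lens. The dim miR-18a-5p and miR-19a-3p were also highest there among the arrays that detected them. The 3 members of the Mcm7 cluster instead had their highest mean scaled signal in the cornea, for miR-93-5p among the tissues where all 3 arrays detected it. These orders rest in part on the scaling, which raised the lens and cornea arrays most. Without scaling, miR-20a-5p was still highest in the lens, though overlapping the iris, while miR-19b-3p, miR-92a-3p and miR-25-3p had their highest mean in the retina and miR-106b-5p in the iris. Unscaled values are therefore given with each member. Signals of the members differed among the 8 tissues: all 5 members detected on every array were called by limma's F test, with adjusted p from 1.06e-13 for miR-20a-5p to 2e-08 for miR-106b-5p, where 78.1% of the 352 miRNAs tested were called.

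**Figure D1:**
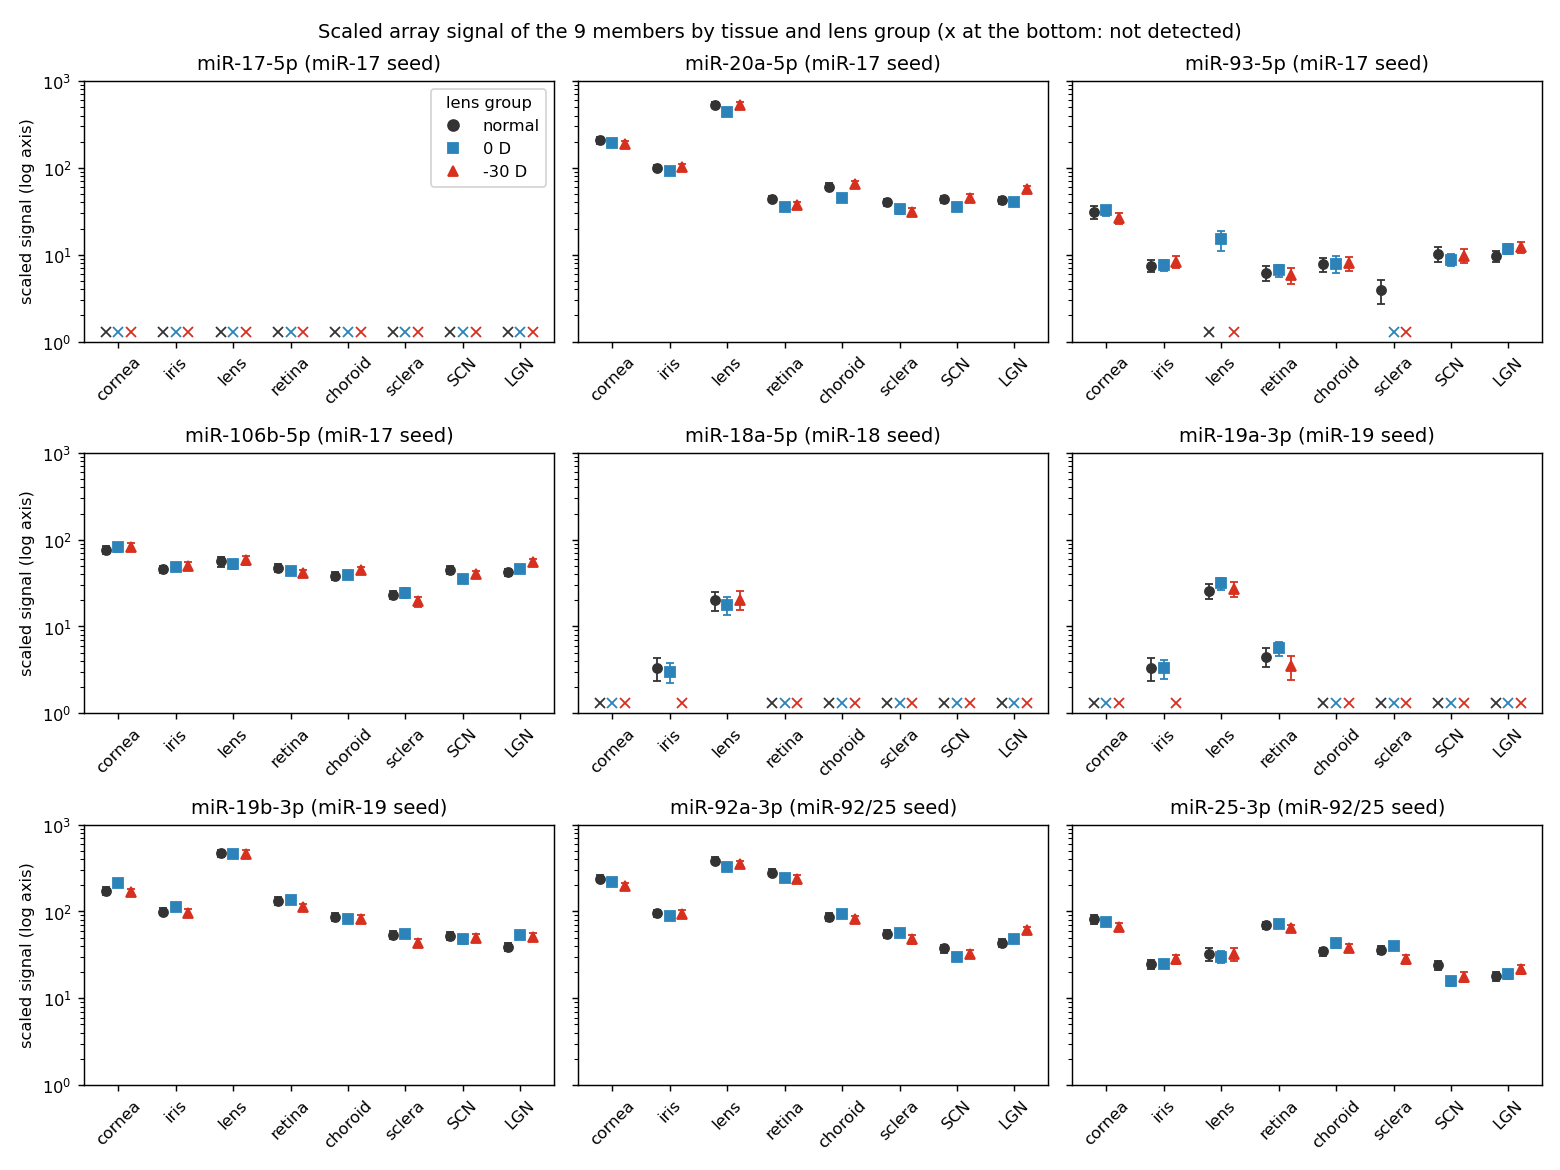
Scaled signal (arbitrary units, log axis) of each of the 9 members in 8 tissues, with 1 point per array, colored by lens group, and the array's own error as bars; crosses at the bottom mark arrays on which the miRNA was not detected. After scaling, miR-20a-5p, miR-19b-3p and miR-92a-3p sit highest in the lens. The Mcm7 cluster members have their highest mean in the cornea, for miR-93-5p among the arrays that detected it and for miR-25-3p overlapping the retina. miR-17-5p was detected on 0 of 24 arrays.

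Within the miR-17 seed, miR-17-5p, the name-giving member, had no measured level. Both of its probes, of 15 spots each, were below 0 after background subtraction on all 24 arrays, between −4.51 and −2.09, and by more than 1 error on each. Of the 4415 probes on the array, 1.36% and 1.59% had a lower median signal than these. The sequence of a probe is not given in the sources used here, and whether these probes bind their target was not tested. miR-17-3p, the other arm of the same hairpin, was detected on 1 array, the retina of the 0 D group, at 3.30.

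miR-20a-5p, which represses the same seed targets, was detected everywhere. In the lens it measured 530 in the normal, 436 in the 0 D and 532 in the −30 D group. In the cornea it measured 207, 192 and 186 in the same order, and in the iris 99.4, 93.2 and 103. Each of these 3 tissues lay apart from the next, with no overlap between arrays. In the remaining 5 tissues it was between 31.2 and 65.2, and each neighbor in the order choroid, LGN, SCN, retina and sclera overlapped the next. The lens mean, 499 ± 55.1 (SD, n = 3), was thus the highest and the sclera mean, 34.9 ± 4.79, the lowest, a 14.3-fold span. Without scaling the span was 5.81-fold, and the lens arrays (169 to 202) overlapped the iris arrays (139 to 188). The lens mean was also the highest, with no overlap, with scaling over all detected miRNAs (a 7.74-fold span) and with quantile normalization (22.9-fold).

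miR-106b-5p, encoded in Mcm7 with the same seed, was flatter. It measured 76.2, 81.3 and 82.3 in the normal, 0 D and −30 D corneas, and 56.1, 52.4 and 57.8 in the lens. The iris, LGN, retina, choroid and SCN followed with means from 48.1 ± 2.15 down to 39.8 ± 5.08 (SD, n = 3), neighbors overlapping throughout. The sclera was lowest, at 23.2, 24.6 and 19.5, below all other arrays, and the span from cornea to sclera was 3.58-fold. The cornea's place turned without scaling: the unscaled signal was 38.7 to 51.1 in the cornea and 18.4 to 21.8 in the lens, against 66.4 to 97.6 in the iris and 63.7 to 80.8 in the retina. With scaling over all detected miRNAs the iris mean was likewise the highest.

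miR-93-5p, the second miRNA of the Mcm7 cluster with this seed, was dim. The cornea arrays measured 30.8, 32.3 and 26.6 in the normal, 0 D and −30 D groups, above every other array that detected miR-93-5p. The other lens arrays than the 0 D array did not detect it, and their detection limits, 27.4 and 28.1, lay above the −30 D cornea value. The next were the 0 D lens array, at 15.0, and the LGN arrays at 9.55, 11.6 and 12.3. SCN (8.79 to 10.2), choroid (7.78 to 7.94), iris (7.46 to 8.31) and retina (5.82 to 6.59) followed, and in the sclera 1 of 3 arrays detected it, at 3.93. Without scaling the cornea (15.6 to 18.8) overlapped LGN (12.8 to 19.3).

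miR-18a-5p, the only member with the miR-18 seed, measured 20.2, 17.7 and 20.4 in the normal, 0 D and −30 D lens. The sole other arrays to detect it were the normal and 0 D iris, at 3.35 and 3.02. With the undetected arrays at their own detection limits, the lens signal was at least 3.35-fold higher than in the retina, 3.06-fold than in LGN, 2.37-fold than in choroid, 2.30-fold than in SCN and 2.09-fold than in sclera. These bounds come from the scaling: the unscaled lens signal was 6.49 to 7.70, below the unscaled limits of all of these tissues, so that no bound above 1 remained. After scaling, no bound above 1 could be given against the cornea, whose dim arrays had a limit of 19.7. Since miR-18a-5p and miR-19a-3p were undetected on most arrays, on 19 and 16 of 24, their tests are not described. Apart from the direction of their calls in the comparison of the cornea with the mean of retina, lens, SCN and LGN, they enter only the counts of members by setting in the closing section.

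For the miR-19 seed, the probes of miR-19a-3p were dim and those of miR-19b-3p bright, and both members had the lens as their highest tissue after scaling. miR-19a-3p measured 25.7, 31.3 and 27.1 in the normal, 0 D and −30 D lens, 4.51, 5.62 and 3.52 in the retina, and 3.34 and 3.31 on the normal and 0 D iris arrays. The lens was at least 4.41-fold higher than LGN, 3.39-fold than choroid, 3.33-fold than SCN, 3.0-fold than sclera and 1.41-fold than cornea, tissues in which no array detected it. Without scaling these bounds fell to 1.12-fold for LGN, 1.18-fold for SCN and 1.21-fold for sclera, none remained for choroid and cornea, and the lens (8.59 to 13) overlapped the retina (5.48 to 10.4).

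miR-19b-3p, which is made from 2 loci, measured 465, 463 and 462 in the normal, 0 D and −30 D lens. The cornea followed with 173, 210 and 167, and the retina with 133, 136 and 112. The iris was at 96.9 to 113, overlapping the retina, the choroid at 80.9 to 86.8, and the sclera, SCN and LGN, which overlapped one another, at 39.4 to 55.2. The lens arrays differed from each other by less than 1 array error, and the span from lens to LGN was 9.74-fold. Without scaling the retina had the highest mean, at 173 to 252 against 147 to 192 in the lens, ranges that overlapped. With scaling over all detected miRNAs and with quantile normalization the lens stayed above every other tissue, by 1.65-fold over the retina and 2.86-fold over the cornea.

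In the miR-92/25 seed, miR-92a-3p, also made from 2 loci, had its highest scaled signal in the lens, with 385, 327 and 351 in the normal, 0 D and −30 D groups. It was next highest in the retina, with 281, 243 and 239, which overlapped the cornea at 239, 218 and 194. Iris and choroid (81.3 to 95.4) overlapped, as did sclera and LGN (43.4 to 60.4), and SCN was lowest at 30.1 to 37.5, a 10.6-fold span. Without scaling the retina was highest, at 371 to 449 against 111 to 147 in the lens, and with scaling over all detected miRNAs the retina mean was 1.60-fold the lens mean, with no overlap either time. With quantile normalization the lens mean was 1.67-fold the retina mean.

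miR-25-3p, its seed mate from the Mcm7 cluster, measured 81.1, 75.6 and 66.7 in the normal, 0 D and −30 D cornea and 69.2, 71.8 and 64.1 in the retina, ranges that overlapped. Choroid, sclera and lens followed at 28.2 to 42.9, each overlapping the next. The iris was at 24.7 to 28.1, and LGN and SCN were lowest at 15.8 to 24.2. The lens mean, 31.9 ± 1.40 (SD, n = 3), was thus below that of 4 other tissues. Without scaling the retina was highest, at 99.5 to 133, against 41.1 to 44.1 in the cornea, and the lens lowest, at 10.4 to 12.6, and with scaling over all detected miRNAs and quantile normalization the retina mean was also the highest.

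The design of the comparison set the cornea, with its renewing epithelium, against 4 tissues made mostly of cells that no longer divide. Against the mean of retina, lens, SCN and LGN, 6 of the 9 members were called higher in the cornea by limma (adjusted p from 2.07e-10 to 7.62e-07), where 20.2% of all miRNAs tested were. The log2 differences were 1.33 ± 0.09 (SE) for miR-20a-5p, 1.49 ± 0.09 for miR-93-5p, 1.31 ± 0.12 for miR-25-3p, 0.97 ± 0.09 for miR-92a-3p, 0.79 ± 0.09 for miR-106b-5p and 0.75 ± 0.08 for miR-19b-3p. Each was above 0 within all 3 lens groups. Of the other members, miR-17-5p was not tested. miR-18a-5p and miR-19a-3p, detected on no cornea array and set to the floor there, were called lower. The value for miR-93-5p includes 2 lens arrays on which it was undetected, set to the floor, and was 1.52 with the lens left out. Both values also hold the retina arrays (5.82 to 6.59) and some SCN and LGN arrays, which lay below the floor of 9.93 and were set to it. Over the 5 members detected on all arrays the median was 0.97, against 0.15 over all 79 such miRNAs, of which 33 were called higher. Without scaling between the arrays, 3 members were called, miR-20a-5p, miR-93-5p and miR-25-3p, and miR-19b-3p turned to −0.03. The same 3 were called with scaling over all detected miRNAs. With the lens left out of the mean, an alternative chosen after the values were seen, the 6 members were called again, with differences from 0.87 for miR-106b-5p to 2.22 for miR-20a-5p.

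The scaling weighs on these comparisons because the cornea arrays were dim: it moved the difference by 1.51 on the log2 scale against the retina, by 0.88 against SCN, by 1.35 against LGN and by −0.62 against the lens. Values without it are therefore given with each tissue.

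Against the retina, 4 members were called higher in the cornea by limma, where 20.2% of miRNAs were. miR-20a-5p differed most, by 2.34 ± 0.12 (SE, 5.06-fold, adjusted p = 4.01e-11), with corneas at 186 to 207 and retinas at 35.2 to 44.1. miR-93-5p was 3.0-fold higher with the retina arrays set to the floor (adjusted p = 2.59e-09), and its measured means were 29.9 ± 2.94 against 6.18 ± 0.388 (SD, n = 3). Both kept their call without scaling, and miR-93-5p lost it against retina, SCN and LGN when undetected miRNAs were set to 0.1 in place of the floor (adjusted p = 0.208 against the retina, limma). The cornea, retina, SCN and LGN arrays all detected miR-93-5p, and its difference from the retina was then larger, at 2.27. The fit shares 1 error over the 24 arrays, the lens and sclera arrays at 0.1 among them. miR-106b-5p was higher by 0.86 ± 0.11 (adjusted p = 5.22e-06) and miR-19b-3p by 0.53 ± 0.11 (adjusted p = 0.00045), but without scaling both turned, to −0.65 and −0.98, and were called lower. The members with the miR-92/25 seed did not pass, at −0.23 ± 0.12 for miR-92a-3p (adjusted p = 0.131) and 0.12 ± 0.15 for miR-25-3p (adjusted p = 0.716), and without scaling both were called lower, at −1.74 and −1.39. miR-92a-3p was also called lower from its brightest probe (−0.25) and without the −30 D LGN array (adjusted p = 0.0362, limma), while miR-25-3p was called higher with a normexp background correction (0.46). The median of the 5 members was 0.53, against 0.13 over the 79 miRNAs.

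Against the lens, the members split by cluster. By limma, the 3 members of the Mcm7 cluster were called higher in the cornea, where 22.2% of miRNAs were. miR-25-3p differed by 1.22 ± 0.15 (adjusted p = 3.01e-06) and miR-106b-5p by 0.53 ± 0.11 (adjusted p = 0.00084). For miR-93-5p only a bound holds, since 2 of 3 lens arrays did not detect it and their detection limits, 27.4 and 28.1, lie above the floor that the fit put in their place: with those limits the cornea was at least 1.32-fold higher. The 3 miR-17/92 members detected on all arrays were called lower, where 19.9% of miRNAs were. miR-20a-5p was at −1.35 ± 0.12 (adjusted p = 5.17e-08), miR-19b-3p at −1.34 ± 0.11 (adjusted p = 1.66e-08) and miR-92a-3p at −0.71 ± 0.12 (adjusted p = 7.15e-05). Apart from miR-93-5p, each direction was seen in 3 of 3 lens groups. For miR-93-5p the limits of both undetected lens arrays lay above the −30 D cornea value of 26.6. Without scaling miR-92a-3p was no longer called (−0.09), with quantile normalization miR-106b-5p was no longer called (0.25), and with a normexp background correction none of the Mcm7 cluster members was, miR-93-5p turning to −0.05.

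Against the brain samples, the 6 members were called higher in the cornea by limma both times, where 22.4% of miRNAs were for SCN and 24.1% for LGN. For SCN, the differences ran from 1.01 ± 0.11 for miR-106b-5p (adjusted p = 5.75e-07) to 2.70 ± 0.12 for miR-92a-3p (6.50-fold, adjusted p = 2.54e-12). For LGN, they ran from 0.75 ± 0.11 for miR-106b-5p (adjusted p = 2.4e-05) to 2.11 ± 0.12 for miR-92a-3p (4.31-fold, adjusted p = 9.91e-11). miR-19b-3p, miR-20a-5p, miR-92a-3p and miR-25-3p kept both calls under each of the 3 other scalings. Without scaling and with scaling over all detected miRNAs, miR-106b-5p lost its call against SCN (0.13 and 0.31) and was called lower against LGN (−0.60 and −0.43), and miR-93-5p lost its call against LGN (0.08 and 0.25).

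**Figure D2:**
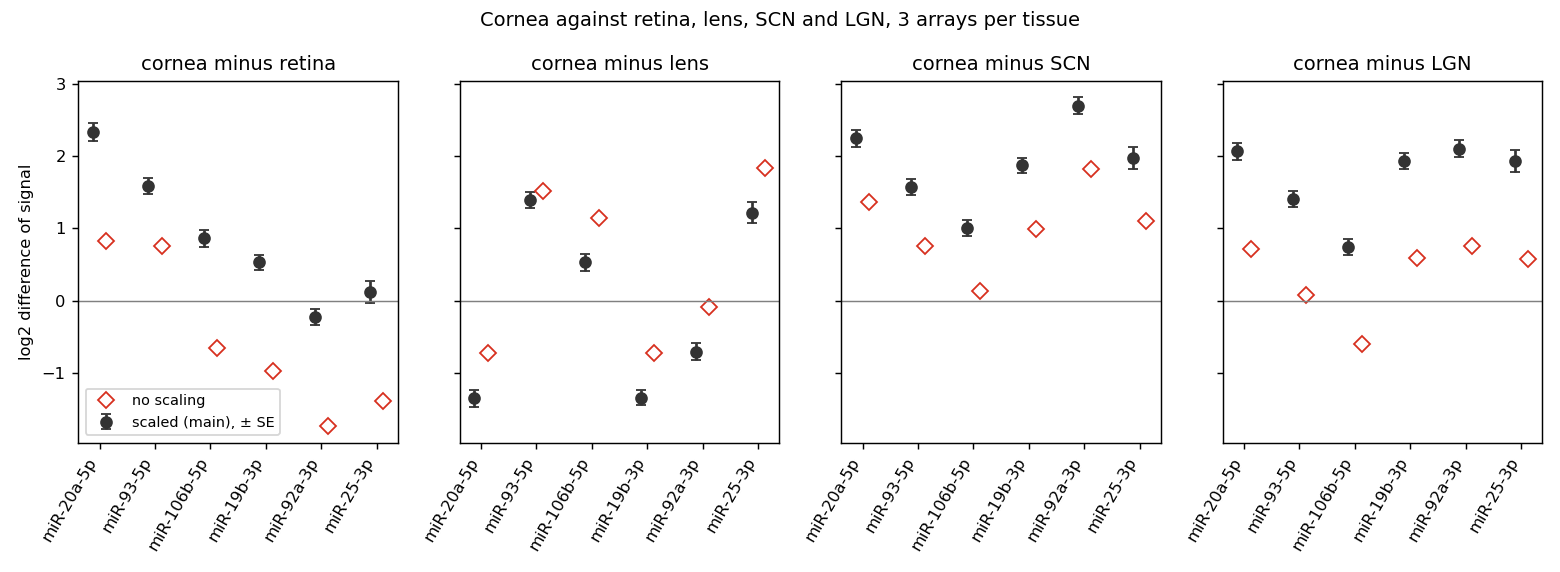
Differences between the cornea and 4 other tissues for 6 members (log2, limma fit on 24 arrays, 3 per tissue); filled circles are the scaled values with their SE and open diamonds the values without scaling between arrays. Against the lens, miR-20a-5p, miR-19b-3p and miR-92a-3p lie below 0 and the Mcm7 cluster members above it (miR-93-5p with 2 undetected lens arrays at the floor), and without scaling miR-106b-5p, miR-19b-3p and miR-25-3p fall below 0 against the retina and miR-106b-5p against LGN.

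Markers of other cells also differed between the tissues. The 6 blood cell markers were all undetected on the lens arrays, where the scaled signals of miR-20a-5p and miR-19b-3p were highest, as were the endothelium (2) and stroma (4) markers. In the cornea, 0 of the 6 blood markers were detected on all 3 arrays, their summed signal was 0 to 37.5, and the erythrocyte miRNA miR-451a was at 0 to 12. In SCN and LGN, where the members were low, the summed blood markers were 69.1 to 96.5 and 71.6 to 80.4. Their sum was 92.2 to 123 in choroid, 70.4 to 87.1 in iris, 67.3 to 89.6 in sclera and 11.0 to 13.3 in retina. The lens and cornea arrays were the dimmest, and dim markers can go undetected there. On the lens arrays that did not detect miR-93-5p, its limits were 27.4 and 28.1, above the miR-451a signal in the retina (11.0 to 13.3). The part of blood, endothelium and stroma cells in the members' signals was not tested. The striated muscle markers were at 361 to 402 in the lens, above their sum in each other tissue (0 to 161), and their part in the lens values was not tested.

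Between nervous tissues the seed groups parted. By limma, the retina was higher than the mean of SCN and LGN in miR-92a-3p by 2.63 ± 0.10 (6.20-fold, adjusted p = 1.22e-12), in miR-25-3p by 1.83 ± 0.13 (adjusted p = 2.64e-09) and in miR-19b-3p by 1.38 ± 0.09 (adjusted p = 1.52e-09), where 19.0% of miRNAs were called higher. These 3 calls held under each of the 3 other scalings. The members with the miR-17 seed did not pass, at −0.18 ± 0.10 for miR-20a-5p (adjusted p = 0.194), −0.10 ± 0.10 for miR-93-5p (adjusted p = 0.565) and 0.02 ± 0.10 for miR-106b-5p (adjusted p = 1). For miR-20a-5p the sign was not settled, at 0.09 with scaling over all detected miRNAs, 0.22 without scaling and 0.19 with quantile normalization, none of them called. miR-106b-5p was called higher without scaling (0.42) and with quantile normalization (0.37). miR-93-5p was called lower without scaling (−0.34), with scaling over all detected miRNAs (−0.48) and with normexp (−0.31). It was also called lower with each array's lowest detected signal as the floor. Its main value rests in part on the common floor of 9.93, to which all retina arrays and some SCN and LGN arrays were set. The measured signals did not overlap, at 5.82 to 6.59 in the retina against 8.79 to 10.2 in SCN and 9.55 to 12.3 in LGN. The median of the 5 members was 1.38, against −0.11 over the 79 miRNAs. The photoreceptor list, with all 3 markers on the retina arrays at a sum of 14498 to 16170 and at most 8.21 in SCN and LGN, moved in the same direction, and its part was not tested.

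The vascular and stromal coats were set against nervous tissue, since these clusters are also known from blood and vessel cells. By limma, miR-20a-5p was higher in the mean of iris, choroid and sclera than in that of retina, SCN and LGN, by 0.47 ± 0.07 (adjusted p = 1.33e-05), and so was miR-19b-3p, by 0.18 ± 0.06 (adjusted p = 0.0177), where 28.4% of miRNAs were called higher. miR-19b-3p lost its call without scaling (0.07) and without the normal or the 0 D arrays. miR-25-3p, at 0.15 ± 0.09 (adjusted p = 0.154), was called without the normal SCN array (0.21), with scaling over all detected miRNAs (0.34), with quantile normalization (0.50) and from its brightest probe (0.19). miR-92a-3p, at 0.0031, was called higher with scaling over all detected miRNAs (0.20) and quantile normalization (0.44) and was at −0.11 without scaling. miR-93-5p, at −0.06 ± 0.06 (adjusted p = 0.43), was called lower with scaling over all detected miRNAs (−0.21) and without scaling (−0.36). It was also called lower with each array's lowest detected signal as the floor. In the main fit all its iris (7.46 to 8.31), choroid (7.78 to 7.94), sclera and retina (5.82 to 6.59) arrays were set to the floor of 9.93. Some SCN and LGN arrays were too, so that the main value cannot show a difference below the floor. miR-106b-5p was lower by limma, at −0.31 ± 0.06 (adjusted p = 0.000458), where 36.6% of miRNAs were called lower, but was not called with scaling over all detected miRNAs (−0.12) or normexp (−0.07) and turned to 0.09 with quantile normalization. The iris mean of miR-20a-5p was 98.6 ± 5.10 and the sclera mean 34.9 ± 4.79 (SD, n = 3), with no overlap between their arrays, so that the coats differed among themselves. The endothelial marker miR-126a-3p was at 1030 to 1203 in choroid, 329 to 350 in iris and 242 to 393 in sclera, the last 2 overlapping, and its part in these values was not tested.

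Differences between members on the same array do not depend on the scaling, and their change from tissue to tissue shows where members of 1 seed part. They were chosen for description after the values were seen and were not tested. The log2 signal of miR-20a-5p minus that of its seed mate miR-106b-5p was 3.17 ± 0.10 (SD, n = 3) in the lens, 1.29 ± 0.14 in the cornea and 1.04 ± 0.09 in the iris. It was 0.64 ± 0.19 in sclera, 0.47 ± 0.25 in choroid, 0.05 ± 0.12 in SCN, −0.04 ± 0.12 in LGN and −0.19 ± 0.11 in retina. The relative signal of these seed mates thus changed 10.2-fold between lens and retina. For the other seed, miR-92a-3p minus miR-25-3p was also largest in the lens, at 3.47 ± 0.08, against 1.89 ± 0.13 in the retina, 1.54 ± 0.02 in the cornea and 0.63 ± 0.13 in the sclera, a 7.16-fold change from lens to sclera.

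Members of 1 cluster parted as well. miR-20a-5p minus miR-92a-3p, both made from the chromosome 14 cluster, was −2.72 ± 0.06 in the retina, and from −0.62 ± 0.37 (choroid) to 0.49 ± 0.10 (lens) in the other 7 tissues. Its change from lens to retina was 9.26-fold. miR-92a-3p has its further locus on the X chromosome, whose share in the signal cannot be told apart.

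**Figure D3:**
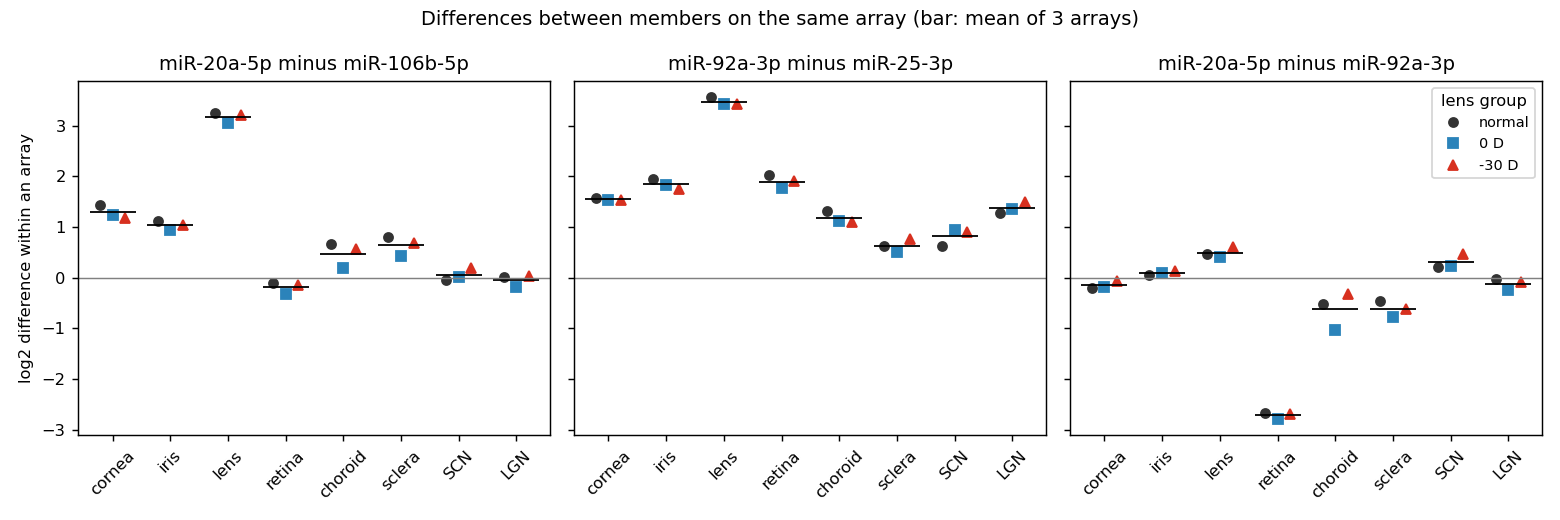
Differences between the log2 signals of 2 members on the same array, for 8 tissues and 3 lens groups (points, 1 per array) with the mean of 3 arrays as a bar. The difference between miR-20a-5p and miR-106b-5p is 3.17 in the lens and −0.19 in the retina, that between miR-92a-3p and miR-25-3p is 3.47 in the lens, and that between miR-20a-5p and miR-92a-3p is −2.72 in the retina.

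Of 23 other mature arms of these clusters and families, 22 had probes, 3 were detected on any array and 1 on at least 12. That one, miR-20b-5p, carries the miR-17 seed, is encoded on the X chromosome at chrX:52742159-52742181 and differs from miR-20a-5p at U1C and U10C. Its scaled signal was highest in the lens too, at 67.8 ± 1.77 (SD, n = 3), followed by iris at 31.1 ± 2.39, cornea at 30.2 ± 7.12 and choroid at 20.7 ± 3.13. Sclera (8.92 ± 3.17), LGN (5.93 ± 1.39) and retina (4.29 ± 0.310) were lower, and in SCN 2 of 3 arrays detected it. Without scaling the iris was highest, at 43.5 to 59.5 against 21 to 28.1 in the lens. miR-32-3p was found at 4.26 to 13.7 on 8 of the 9 iris, choroid and sclera arrays and on no other array. The other arms of the miR-25, miR-93 and miR-106b hairpins, and miR-92b-3p, miR-363-3p and miR-32-5p, which carry the miR-92/25 seed, were detected on no array.

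Among the 74 other miRNAs detected on all 24 arrays, the pattern over the 8 tissue means most like that of the miR-92/25 seed was that of miR-210-3p (Pearson's r = 0.96), known for its induction in low oxygen, followed by miR-204-5p (r = 0.80) and miR-423-5p (r = 0.79). For the miR-17 seed they were miR-7080-3p (r = 0.90), miR-5100 (r = 0.77) and miR-6366 (r = 0.76), and for the miR-19 seed miR-7080-3p (r = 0.89), miR-1224-5p (r = 0.80) and miR-6937-5p (r = 0.80). The 8 points of each r share the arrays and their scaling, and miR-7080-3p and miR-6937-5p lay at the floor in retina and LGN. Among the members themselves, r was 0.92 for miR-19b-3p with miR-92a-3p and 0.90 with miR-20a-5p, and 0.19 for miR-20a-5p with miR-25-3p.

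Over the lens groups, the members moved little. Across the 8 tissues, no member was called by limma between the −30 D and the normal group, and neither was any of the 352 miRNAs (0% called, 25 at an unadjusted p under 0.05). The differences of the 5 members detected on all arrays were between −0.09 ± 0.07 (SE) for miR-92a-3p and 0.03 ± 0.07 for miR-106b-5p, whose sign turned with scaling over all detected miRNAs (−0.03) and with quantile normalization (−0.06). For the 0 D against the normal group no member was called either, where 0.568% of miRNAs were. miR-20a-5p came nearest, at −0.24 ± 0.07 (adjusted p = 0.175), lower in the 0 D group in 8 of 8 tissues, by 0.06 (LGN) to 0.43 (choroid) on the log2 scale, but at 0.01 without scaling, which moved all 0 D values by −0.24. From its brightest probe alone it was called, at −0.28 (limma, adjusted p = 0.0048). Since each lens group is 1 slide, a difference of slides would appear in the same place.

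Within a tissue each lens group has 1 array, so that ratios were read by the study's criteria with no test: above 2 or below 0.5 where both arrays detected the miRNA, above 5 or below 0.2 where 1 did. Of the 100 member ratios with both arrays detected, none passed. For −30 D over normal these 49 ratios stayed within 0.48 of 0 on the log2 scale, and for 0 D over normal the 51 stayed within 0.62. Ratios with 1 array detected passed in 3 and 2 cases, all at signals near the detection limit: miR-18a-5p and miR-19a-3p in the iris and miR-93-5p in the sclera were undetected on the −30 D arrays, and miR-93-5p was undetected on the 0 D sclera array and detected on the 0 D lens array alone. By these criteria 17.2% of all miRNA ratios passed for −30 D and 15.6% for 0 D, and members made up 52 and 53 of the ratios.

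Of the ratios with both arrays detected, 30 of 49 for −30 D and 37 of 51 for 0 D lay within 1 propagated array error, and 3 each beyond 2 errors. For −30 D the 3 were in LGN: miR-92a-3p at 0.48 ± 0.20 (array error), miR-20a-5p at 0.42 ± 0.19 and miR-106b-5p at 0.40 ± 0.19. There all 5 members detected on every array were higher than on the normal array, with a median of 0.40, where the median over the 79 miRNAs was 0.20 with an SD of 0.33. For 0 D the 3 were miR-25-3p in SCN at −0.62 ± 0.25, where the median over the 79 miRNAs was −0.31, miR-19b-3p in LGN at 0.44 ± 0.20 and miR-20a-5p in choroid at −0.43 ± 0.19. In the cornea, the −30 D array was lower than the normal array in 4 of the 5 members, with a median of −0.15, where the 79 miRNAs had a median of 0.03 with an SD of 0.60. In the retina it was lower in 5 of 5, with a median of −0.23 against −0.20 over the 79 miRNAs, and in the sclera in 5 of 5, with a median of −0.30 against −0.21 (SD 0.56).

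**Figure D4:**
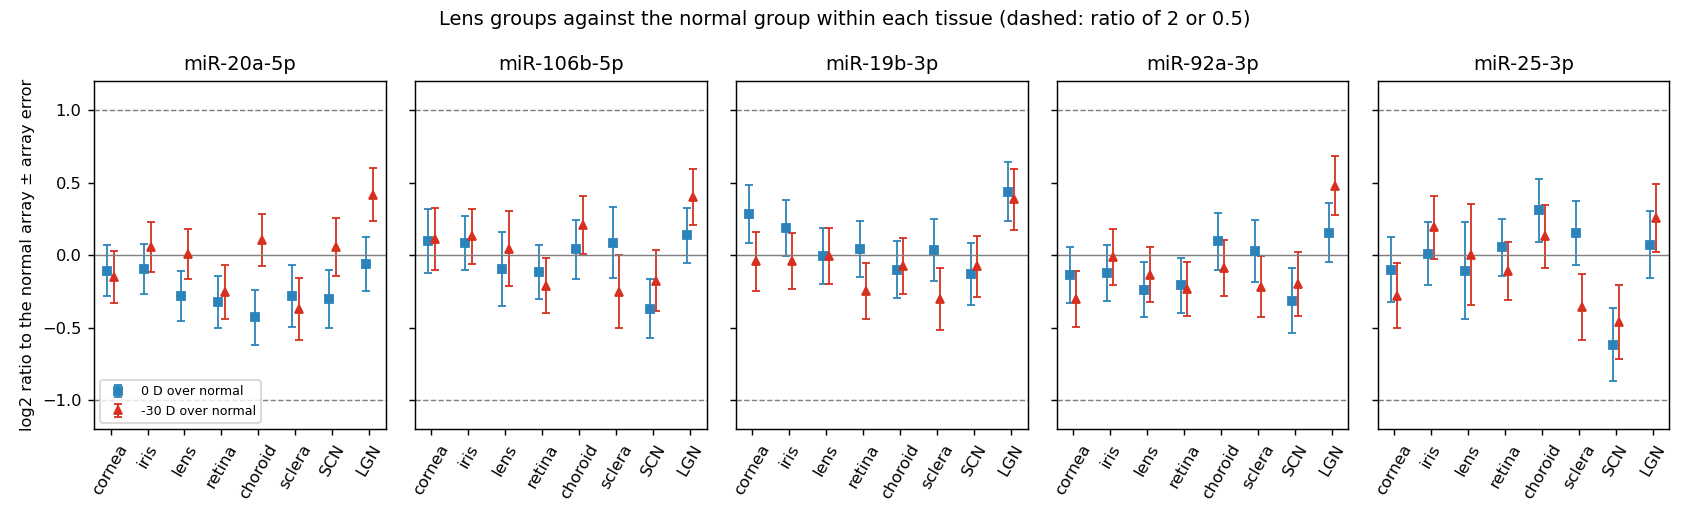
Log2 ratio of the 0 D array (blue squares) and the −30 D array (red triangles) to the normal array within each of 8 tissues, for the 5 members detected on all arrays, with the error propagated from the 2 arrays as bars; dashed lines mark ratios of 2 and 0.5. All ratios lie between the dashed lines, from −0.62 to 0.48.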

How the data were processed

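Per the labels and the study's methods, total RNA was labelled with cyanine 3 and hybridized to Agilent mouse miRNA arrays, 1 for each tissue and lens group. The authors made the deposited intensity values with Agilent Feature Extraction 10.7.1.1, which subtracts the background and gives each probe 1 total signal over its spots, with an error. The scanner files of the 24 arrays were used. In a further deposited table, 24 signal columns carry names that could not be matched to a single sample and were not used.

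For each miRNA, the probes above 3 errors were summed and scaled to an equal 75th percentile, taken over the 79 miRNAs that all 24 arrays detected. No spot was saturated. Values below the common floor of 9.93, the highest of the arrays' lowest detected signals, were set to it. The 352 miRNAs detected on at least 3 arrays were tested on the log2 scale with limma 3.58.1 (R 4.3.3; lmFit and eBayes with a trend; tissue and lens group as terms; Benjamini-Hochberg adjustment over all 352, of which 46 lay at the floor on every array). Since nothing shows that arrays of a tissue came from separate animals in every group, p-values measure the spread between arrays, 14 residual degrees of freedom in all. The number of arrays limits the precision.

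For members undetected on all arrays of a tissue, or on some of them (miR-93-5p in the lens), the bound took for each such array 3 errors of each probe, summed over the miRNA, as the signal of the dim side, or the array's lowest detected signal where higher. Ratios within a tissue used the study's criteria, with undetected miRNAs at 0.1. All 9 members are named; other arms are given by counts with values for those detected on at least 12 arrays; the 3 miRNAs with the highest r are named for each seed group; markers are given by counts and ranges. The members and lists were chosen with earlier results of these data known. Alternatives covered scaling, probe summary, background correction, floor, filter, model terms, and leaving out each array or each lens group. The fit was tested on simulated data. Python 3.11.15, numpy 2.4.6, pandas 2.3.3 and matplotlib 3.10.9 were used.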

Additional observations from a re-analysis of the deposited data

How the results depend on the processing

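The scaling of the arrays mattered most. The counts of limma calls below are over the 8 members tested, the mostly undetected miR-18a-5p and miR-19a-3p included. The count of members called higher in the cornea than in the 4 other tissues fell from 6 to 3 with scaling over all detected miRNAs and to 3 with no scaling, and that against the retina from 4 to 2 and 2, while normexp gave 7 against the retina and 0 against the lens. For iris, choroid and sclera against nervous tissue the count was 4 with scaling over all detected miRNAs or quantile normalization, 1 with no scaling, and 1 without the normal or without the 0 D arrays, in place of 2. For the retina against the brain samples, members called in either direction numbered 6 with no scaling, in place of 3. They numbered 5 with quantile normalization, normexp or a floor at each array's lowest detected signal. miR-93-5p was called lower in this comparison with no scaling, scaling over all detected miRNAs, normexp and a floor at each array's lowest detected signal. With the filter of detection on all 24 arrays, 5 members remained to be tested and were called among the 8 tissues, in place of 8. For the 0 D lens, 1 member was called with no scaling (miR-93-5p) and 1 from the brightest probe alone (miR-20a-5p), in place of 0. Of the lens ratios within a tissue, 5 passed, each with the miRNA undetected on 1 of the arrays and set to 0.1 there. The count was 0 with scaling over all detected miRNAs, normexp, each array's own floor or the brightest probe, and 1 with quantile normalization. These counts depend on the value given to undetected miRNAs, and the part of scaling or probe choice in them was not tested.

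Of the differences of single members that were called in 1 or both settings, 12 changed sign, most of them with scaling over all detected miRNAs and with no scaling: miR-19b-3p against the mean of the 4 tissues (−0.031 and −0.030), and against the retina miR-19b-3p (−0.67 and −0.98), miR-106b-5p (−0.34 and −0.65) and miR-25-3p (−1.08 and −1.39), and miR-106b-5p against LGN (−0.43 and −0.60). miR-93-5p against the lens turned with normexp (−0.052), and miR-106b-5p in the coats against nervous tissue with quantile normalization (0.088). A further 25 sign changes had neither value called, miR-20a-5p in the retina against the brain samples (0.09 to 0.22) and miR-25-3p in the cornea against the retina (−0.01 with quantile normalization) among them. The cause was not tested beyond the shift that the scaling itself sets. Leaving out each array in turn left each count of members called as it was, except iris, choroid and sclera against nervous tissue, which ranged from 2 to 3 (3 without the normal SCN array). The test without a filter used the miRNAs whose values were not all at the floor. The labels give no replicate numbers to pair; lens comparisons hold the tissue as a block and tissue comparisons the lens group, and without these terms each count of members called was as before. Dim members (miR-93-5p, miR-19a-3p, miR-18a-5p) lie near the detection limits, which are highest on the cornea and lens arrays.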
